A study of Mus musculus with 11 samples.

Results

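The comparison described here sets an antisense conjugate that binds the transferrin receptor (TfR) against a conjugate at the same dose that does not bind it. OTV:Malat1 and nonTV:Malat1 (titled RSV-ASO in the labels) were each given at 60 mg/kg, and their libraries were taken by these labels and matched by deposited batch. They make up 6 of the 11 single-nucleus RNA libraries of the series, 3 in each group. All mice were homozygous for a human TfR knock-in per the labels (hTfR KI HOM), while the deposited metadata give the strain as C57BL/6J. Each received 4 intravenous doses, and brain was taken 72 h after the last. In both groups replicate 1 came from females aged 2.33 months, while replicates 4 and 5 came from males aged 2.57 and 2.33 months. Sex and age therefore cannot be told apart from batch and replicate number. The labels give the region as Posterior and the metadata give cortex. Where background levels are needed, the 3 ATV:BACE1 libraries are used, from mice given 57 mg/kg of a TfR-binding molecule without an oligonucleotide. The fits over 11 libraries also hold the 2 Malat1 ASO libraries, from mice given the oligonucleotide at 2.5 mg/kg, which share the estimate of the spread.

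The TfR carries iron-loaded transferrin into cells and is abundant on the endothelial cells of brain capillaries, where molecules bound to it can be moved across the blood-brain barrier. An antisense oligonucleotide (ASO) pairs with its RNA and recruits RNase H1, which cuts the paired strand. Malat1, the RNA targeted here, is a long non-coding RNA that stays in the nucleus, where it gathers at nuclear speckles, so it is captured well from isolated nuclei. Its gene, an lncRNA of 6983 bases in the RefSeq annotation of mm10 (GRCm38.p6), lies on chromosome 19 from 5795690 to 5802672.

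The 6 libraries held 59697 nuclei, from 7546 to 13840 a library, with totals of 33235994 to 43972886 UMIs (unique molecular identifiers, which count captured RNA molecules). Median UMIs per nucleus ran from 2205 in OTV:Malat1 replicate 5 to 3666 in OTV:Malat1 replicate 4. Of 59290 distinct barcodes, 403 were seen in more than 1 of the 6 libraries. The deposited class names were checked against marker sums, in CPM (counts scaled to a common total of UMIs of the class) and averaged over the 6 libraries. Neurons, oligodendrocytes, astrocytes, microglia and vascular endothelium were led by their own markers. In 4 classes another type led. The class named Pericytes held 10488 CPM of endothelial and 6482 CPM of pericyte markers. The class named Leptomeningeal cells held 4796 CPM of astrocyte and 3348 CPM of leptomeningeal markers, and Vascular smooth muscle was led by pericyte markers at 6850 CPM. Glia was led by choroid plexus markers at 12289 CPM, followed by ependymal markers at 2690 CPM. The deposited names are kept below with that reservation.

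Values by library are given below in the order of replicates 1, 4 and 5. In all nuclei together Malat1 made up 4.95%, 4.00% and 5.03% of OTV:Malat1 UMIs and 7.49%, 7.61% and 8.39% of nonTV:Malat1 UMIs. Every OTV:Malat1 library lay below every nonTV:Malat1 library, as did those of 1.36% of the 21409 genes tested. The OTV:Malat1 mean was 59.5% of the nonTV:Malat1 mean. The log2 change was -0.78 (SE 0.121), and with batch as a block its edgeR adjusted p over all genes was 0.698 (unadjusted edgeR p 3.26e-05). An exact two-sided permutation test of the 6 shares, which left out the pairing by batch, gave p = 0.1. No smaller p is possible in that test with 3 libraries a group. With signs flipped within 3 pairs the smallest possible p is 0.25. No gene was called, a call being an adjusted p under 0.05 by Benjamini and Hochberg, which is 0.0% of those tested. At an unadjusted p under 0.05 edgeR held 850 genes (3.97%), and DESeq2 called 1 gene, Malat1. The edgeR adjusted p of Malat1 was 0.0337 in a fit of the 6 libraries alone, 0.0261 without ATV:BACE1 replicate 1 and 0.0409 without ATV:BACE1 replicate 4.

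Oligodendrocytes, the cells that make myelin, had the lowest share of Malat1 left among the classes. The OTV:Malat1 libraries held 1.85%, 1.52% and 2.03%, against 6.48%, 7.59% and 7.64% for nonTV:Malat1. The groups lay far apart, and their means of 1.80% ± 0.260 and 7.24% ± 0.653 (SD, n = 3 each) left 24.9%. The log2 change was -2.09 (SE 0.113), with an edgeR adjusted p of 2.11e-15 over 12362 genes, of which 0.0162% were called.

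Astrocytes, which wrap capillaries with their endfeet, held 3.81%, 3.25% and 3.92% against 9.64%, 10.8% and 11.1% in the same replicate order. The log2 change was -1.61 (SE 0.157, edgeR adjusted p 1.39e-07), leaving 34.9%, and 0.00712% of the genes tested in this class were called. Vascular endothelium held 1.93%, 1.41% and 2.16% against 4.50%, 4.42% and 5.24%. Its log2 change was -1.41 (SE 0.115, edgeR adjusted p 7.83e-11), leaving 38.8%, with 0.0225% of genes called. In both classes the highest OTV:Malat1 library was below the lowest nonTV:Malat1 library by more than the range within either group. In these 3 classes Malat1 stayed called whichever of the 11 libraries was left out.

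Neurons, microglia and the class named Pericytes kept more Malat1. In neurons the shares were 5.18%, 4.15% and 5.15% against 7.37%, 7.41% and 8.33%, leaving 62.6%. The log2 change was -0.72 (SE 0.088) and the edgeR adjusted p 0.0355, with 0.00483% of genes called. This call was lost in 10 of the 11 fits that left out 1 library: the adjusted p was 0.000148 without ATV:BACE1 replicate 1 and reached 1.00 without nonTV:Malat1 replicate 1, while the log2 change stayed between -0.81 and -0.63. Leaving out a Malat1 ASO library gave 0.0526 for replicate 1 and 0.0508 for replicate 5, and without called doublets it was 0.0885. Microglia, the resident macrophages of the brain, held 2.90%, 2.82% and 3.17% against 4.14%, 4.92% and 5.45%. Their log2 change was -0.71 (SE 0.0968, edgeR adjusted p 4.60e-06), leaving 61.4%, in a class of 343 and 309 nuclei with 0.147% of genes called. In nuclei of at least 1000 UMIs the change was -0.83 with an adjusted p of 0.305. Pericytes held 4.62%, 3.50% and 5.34% against 6.03%, 6.65% and 7.51%, and 0.145% of their genes were called. Their log2 change was -0.64 (SE 0.136, edgeR adjusted p 0.0319), leaving 66.7%. That call was lost without OTV:Malat1 replicate 1 (0.0977) or 4 (0.829) and without nonTV:Malat1 replicate 4 (0.650) or 5 (0.267). It was lost as well by DESeq2 (0.0766), with total counts (0.0574) and with a minimum of 50 nuclei (0.650). In all 3 classes the groups did not overlap. Without batch as a block Malat1 was called in oligodendrocytes and vascular endothelium only, and the edgeR adjusted p was 0.244 in astrocytes, 0.0591 in microglia, 0.646 in Pericytes and 1.00 in neurons.

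The remaining classes gave no call. Leptomeningeal cells held 7.70%, 6.55% and 7.38% against 8.28%, 8.78% and 9.91%, a log2 change of -0.34 (SE 0.0951, edgeR adjusted p 0.453), which was called with no low-count filter (-0.36, adjusted p 1.95e-05). Glia held 5.62%, 5.00% and 6.12% against 6.29%, 7.05% and 7.92%, a log2 change of -0.36 (SE 0.185, edgeR adjusted p 0.999). The groups did not overlap in either class, but the gaps were small beside the spread: the lowest nonTV:Malat1 library of Glia was at 6.29% and the highest OTV:Malat1 library at 6.12%. Vascular smooth muscle reached 20 nuclei in 2 OTV:Malat1 libraries, which held 9.54% and 8.70% against 8.46%, 11.2% and 10.5% in nonTV:Malat1, and these overlapped. Its log2 change was -0.06 (SE 0.261, edgeR adjusted p 0.999), and without nonTV:Malat1 replicate 1 it was -0.32 with an adjusted p of 0.0152. It was above 0 without nonTV:Malat1 replicate 4 (0.0381), without OTV:Malat1 replicate 4 (0.0871) and with no low-count filter (0.134), and none of these was called. Perivascular macrophages, with 37 and 34 nuclei, were not tested.

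Counted over the 9 classes tested, the OTV:Malat1 mean was lower in 9, the libraries did not overlap in 8, and Malat1 was called in 6. Among all genes tested, non-overlap in this direction was found for 0.956% of genes in neurons and for 6.46% in vascular smooth muscle, the lowest and highest shares of the 9 classes. It was 1.29% in oligodendrocytes, 1.26% in astrocytes, 3.73% in vascular endothelium, 3.47% in microglia, 3.73% in Pericytes, 3.26% in Glia and 3.6% in Leptomeningeal cells. Pooled over the 9 class fits, 0.0239% of 79465 gene tests were called.

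**Figure D1:**
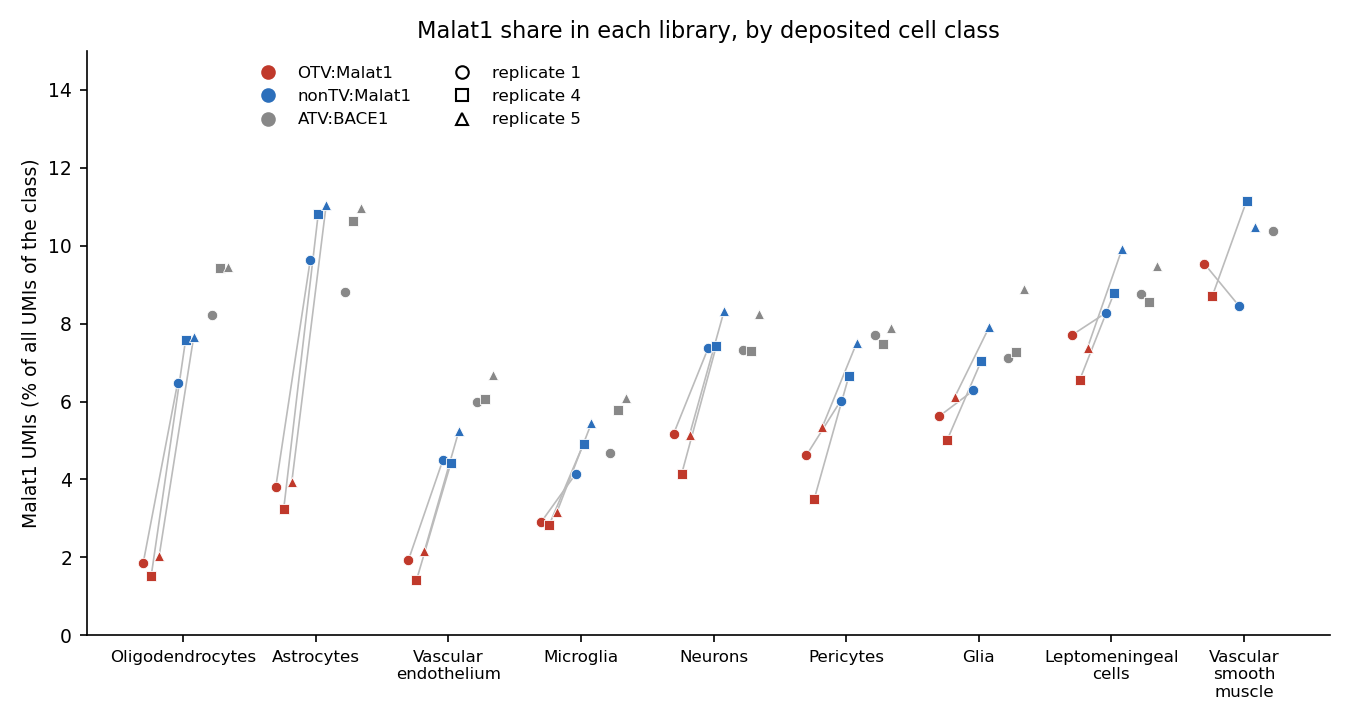
Malat1 as a percent of the UMIs of each class (vertical axis) in each library with at least 20 nuclei, for OTV:Malat1 (red), nonTV:Malat1 (blue) and ATV:BACE1 (grey), with grey lines joining libraries of the same batch. The 3 red points of oligodendrocytes lie between 1.52% and 2.03% and the blue ones between 6.48% and 7.64%, while in vascular smooth muscle red and blue overlap.

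Against the background without an oligonucleotide, the nonTV:Malat1 mean was 80.1% of the ATV:BACE1 mean in oligodendrocytes, 75.7% in vascular endothelium, 87.7% in microglia and 87.5% in Pericytes. In neurons it was 101% and in astrocytes 104%. These differences were not tested, and the libraries overlapped in microglia, at 4.67% to 6.10% in ATV:BACE1 and 4.14% to 5.45% in nonTV:Malat1, and in Pericytes, at 7.48% to 7.88% and 6.03% to 7.51%. The share left in OTV:Malat1 is given relative to nonTV:Malat1 throughout.

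Whether a class fell more than neurons was tested by the interaction of class and group in edgeR with both classes in 1 model. Malat1 was called in 2 of 8 classes. The change in oligodendrocytes was lower than that of neurons by -1.36 (SE 0.126) on the log2 scale, with an adjusted p of 6.60e-23, and 0.00962% of the genes in that model were called. For astrocytes the difference was -0.91 (SE 0.115), adjusted p 4.76e-11, with 0.0381% of genes called. In vascular endothelium the difference was -0.72 (SE 0.678), in microglia 0.04 (SE 0.425) and in Pericytes 0.06 (SE 0.816), each with an adjusted p of 1.00. The called share of genes in these models was 0.0155% for microglia, 0.00512% for Pericytes and 0.00479% for Glia, and 0.0% for endothelium, Leptomeningeal cells and vascular smooth muscle. The wide errors of endothelium, microglia and Pericytes do not show that these classes changed as neurons did. A second test, added after the first results, took each library's log2 Malat1 share minus that of its own neurons and compared the groups with limma, with batch as a block. It gave -0.70 (SE 0.0597) for vascular endothelium, and the 3 batches gave -0.71, -0.81 and -0.59. By that test 5 of 7 classes differed from neurons: oligodendrocytes (-1.33), astrocytes (-0.84) and endothelium fell further, while Glia (0.34) and Leptomeningeal cells (0.36) fell less. Microglia (-0.02) and Pericytes (0.08) missed the threshold. The classes in this test share 1 set of neuron values and 1 pooled spread.

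**Figure D2:**
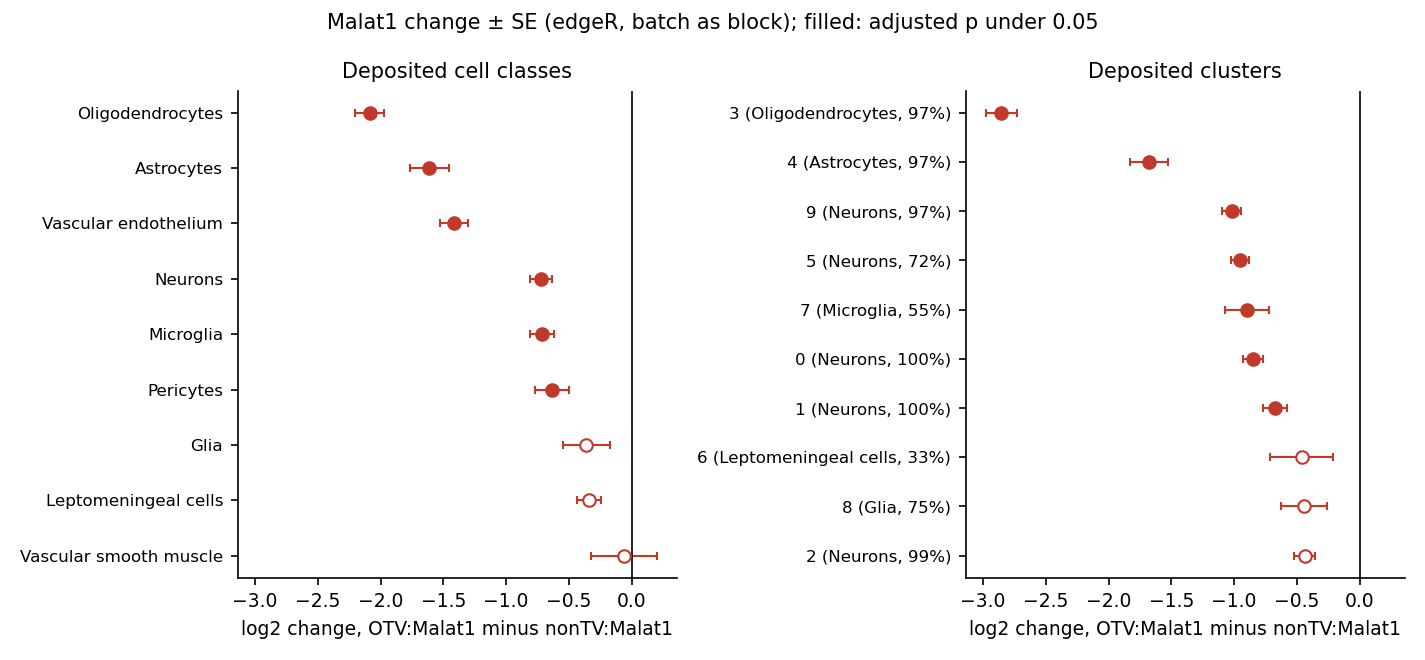
log2 change of Malat1 in OTV:Malat1 minus nonTV:Malat1 (horizontal axis), with bars of 1 SE from edgeR, for the deposited classes (left) and the deposited clusters (right, with the class that most nuclei of the cluster carry). Filled points have an adjusted p under 0.05: 6 of 9 classes and 7 of 10 clusters.

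The deposited clusters divide the nuclei differently from the class names, and no label or header names the parameters of the clustering. Cluster 3, in which 97.4% of nuclei were named oligodendrocytes, held 1.09%, 0.941% and 1.05% Malat1 in OTV:Malat1, against 6.24%, 7.37% and 7.30% in nonTV:Malat1. The log2 change was -2.85 (SE 0.126, edgeR adjusted p 3.46e-21), leaving 14.7%, a lower share than in any class. Cluster 4, 97.4% astrocytes, had a log2 change of -1.67 (SE 0.151) and an edgeR adjusted p of 5.06e-08, leaving 33.4%. The called share of genes was 0.0173% in cluster 3, 0.00737% in cluster 4, 0.00542% in cluster 0, 0.00585% in cluster 1, 0.0141% in cluster 5, 0.0487% in cluster 7 and 0.0185% in cluster 9. Over all 10 clusters Malat1 was called in 7, and 0.00977% of 133061 gene tests were called, with 3.94% at an unadjusted edgeR p under 0.05. The OTV:Malat1 libraries lay below those of nonTV:Malat1 in 10 of 10. That non-overlap was found for 0.85%, 2.08%, 1.65%, 1.43% and 1.38% of the genes in clusters 0 to 4 and for 1.59%, 2.88%, 2.49%, 2.74% and 2.71% in clusters 5 to 9.

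Clusters of neurons differed in how much Malat1 was left. Cluster 0 held, of clusters 0, 1, 2 and 9, the highest level of Slc17a7, a vesicular glutamate transporter of excitatory neurons (149 CPM in nonTV:Malat1), and kept 57.8% (log2 change -0.85, SE 0.0804, edgeR adjusted p 0.000646). Cluster 1, with the GABA-synthesising enzyme Gad2 at 154 CPM, kept 63.3% (log2 change -0.67, SE 0.0952, edgeR adjusted p 0.0329). The call in cluster 0 was lost without nonTV:Malat1 replicate 1 (0.0623) or OTV:Malat1 replicate 4 (0.0520), and without the block (0.994). That in cluster 1 was lost when any nonTV:Malat1 library was left out (0.657, 0.610 and 0.147). It was also lost on leaving out replicate 1 (0.251) or 4 (0.624) of OTV:Malat1, and replicate 5 of ATV:BACE1 (0.277), and without the block (1.00). Cluster 2, with Gad2 at 132 CPM and Rbfox3 (the neuronal protein NeuN) at 553 CPM, kept 75.1%: its shares were 7.18%, 6.05% and 7.06% against 8.44%, 9.08% and 9.51%. Its log2 change was -0.44 (SE 0.0859), and the edgeR adjusted p was 0.522 with 11 libraries and 0.000516 without ATV:BACE1 replicate 1. It was also called with the 6 libraries only (0.000360), by DESeq2 (0.0107), with total counts (0.000264) and with no low-count filter (2.65e-20). Cluster 9, 97.2% neurons, kept 50.8% (log2 change -1.02, SE 0.0759, edgeR adjusted p 3.29e-12). It also carried Mbp, a myelin protein, at 1051 CPM in nonTV:Malat1, and from 27.0% to 45.0% of its nuclei in a library were called doublets. Its Malat1 call held in 9 of 9 alternative settings, the one without called doublets among them. The log2 change stayed between -1.06 and -0.92 over all settings. The part of oligodendrocyte RNA in the Malat1 change of cluster 9 was not tested. Differences among neuron clusters were not tested either.

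Clusters 5 to 8 held nuclei of several class names. Cluster 5 was 71.5% neurons, 15.2% astrocytes and 12.998% oligodendrocytes, and 22.4% to 50.4% of its nuclei in a library were called doublets. It kept 53.8% (log2 change -0.95, SE 0.0713, edgeR adjusted p 1.79e-10). The call in cluster 5 held in 9 of 9 alternative settings, the one without called doublets among them. Cluster 7, 54.8% microglia, kept 54.9% (log2 change -0.90, SE 0.178, edgeR adjusted p 0.0166). That call was lost when any nonTV:Malat1 library was left out (0.0515, 1.00 and 0.0764). Leaving out replicate 4 (0.710) or 5 (0.869) of OTV:Malat1, or replicate 5 of ATV:BACE1 (0.158), also ended it. So did leaving out called doublets (1.00) or the block (1.00), and keeping only nuclei of at least 1000 UMIs (0.0853). Cluster 6, which pools the vascular and leptomeningeal names, kept 74.3% and cluster 8, mostly Glia, kept 74.4%, and neither was called (edgeR adjusted p 1.00 and 0.999). With no low-count filter Malat1 was called in cluster 8 (edgeR adjusted p 0.0175).

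Oligodendrocytes divided into a large and a small part by cluster. Of all nuclei with that name, 90.7% were in cluster 3 and 5.4% in cluster 5. In cluster 3 these nuclei held 1.09%, 0.938% and 1.06% Malat1 against 6.25%, 7.38% and 7.33%, so 14.7% was left. In cluster 5 they held 5.87%, 4.51% and 5.53% against 7.93%, 8.93% and 8.27%, so 63.3% was left. In the remaining clusters 49.3% was left, from 143 and 117 nuclei. The nuclei in cluster 5 carried lower oligodendrocyte markers, with the 7-marker sum between 6577 and 8722 CPM over the 6 libraries against 13144 to 15590 CPM in cluster 3. Their 6 markers of oligodendrocyte precursors, the dividing cells from which oligodendrocytes form, summed to 3091 to 4975 CPM, against 106 to 179 CPM in cluster 3. Their share of called doublets was at most 5.10% in a library, and none was called in cluster 3. Whether Malat1 itself took part in the clustering is not given, so the split is a description and was not tested.

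The share left in oligodendrocytes also differed by depth. In oligodendrocytes with fewer than 800 UMIs the OTV:Malat1 mean was 0.978% ± 0.0752 and the nonTV:Malat1 mean 6.29% ± 1.02 (SD, n = 3 each), leaving 15.6%. From 1500 to under 2500 UMIs 30.9% was left, and from 2500 to under 5000 UMIs 41.2%. Within cluster 3 the share left moved between 14.1% and 17.8% over the 4 depth ranges below 2500 UMIs, and deeper ranges gave no value. How the clusters were spread over depth was not tested. In astrocytes the share left moved between 33.2% and 40.3% over the 5 ranges below 5000 UMIs. In neurons 67.1% was left under 800 UMIs, 79.6% from 1000 to under 1500 UMIs and 60.2% at 5000 UMIs and more.

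**Figure D3:**
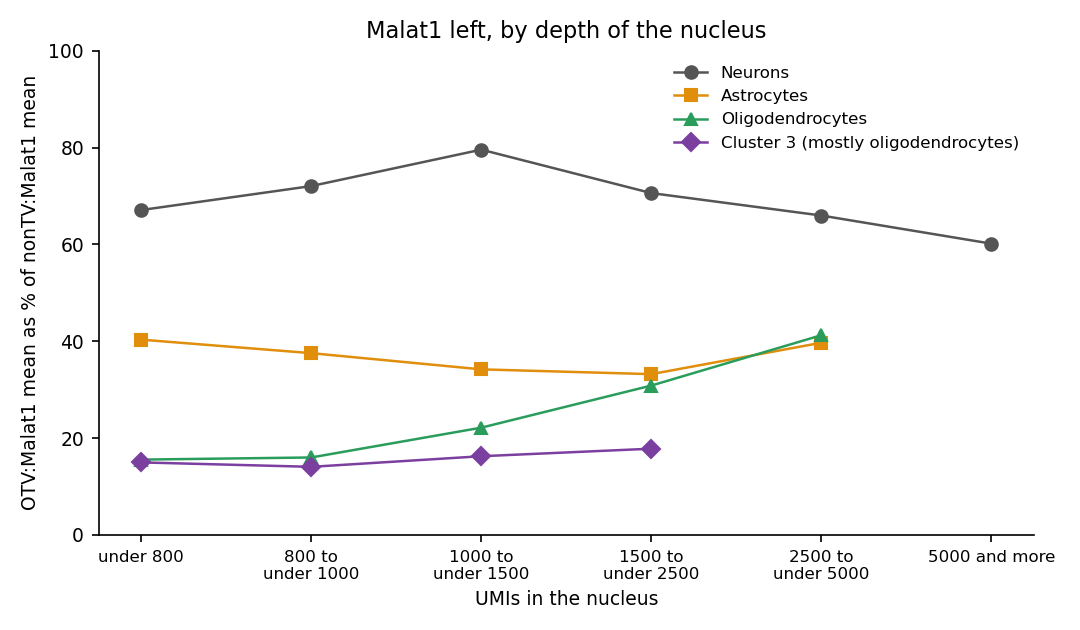
OTV:Malat1 mean Malat1 share as a percent of the nonTV:Malat1 mean (vertical axis) by the UMIs in a nucleus (horizontal axis), for ranges with 3 libraries in each group. Points are means over 3 libraries. Oligodendrocytes rise from 15.6% to 41.2% with depth, at 30.9% from 1500 to under 2500 UMIs. Cluster 3, with points only below 2500 UMIs, stays between 14.1% and 17.8%.

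OTV:Malat1 replicate 4 had the lowest Malat1 share of its group in all 8 classes with 3 OTV:Malat1 libraries and in 10 of 10 clusters. In vascular smooth muscle replicate 5, left out of the fit with 11 nuclei, was lower, at 6.59% against 8.70% in replicate 4. Relative to the nonTV:Malat1 library of its own batch, the fall was smallest in replicate 1, the female, in 8 of the 8 classes with 3 pairs and in 9 of 10 clusters. In oligodendrocytes 28.6%, 19.97% and 26.5% was left in replicates 1, 4 and 5, in astrocytes 39.6%, 30.1% and 35.5%, and in neurons 70.2%, 55.9% and 61.9%. In Leptomeningeal cells the values were 93.0%, 74.5% and 74.5%. With 1 library per batch in each group, neither sex nor age can be told apart from batch and animal, and classes of 1 library are not independent.

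Malat1 per nucleus was compared at equal depth by thinning each nucleus to 1000 UMIs and leaving out shallower ones. This left out 54.6% of OTV:Malat1 and 53.8% of nonTV:Malat1 oligodendrocytes, and 3.80% and 2.60% of neurons. The median oligodendrocyte held 9, 8 and 21 Malat1 UMIs in OTV:Malat1, against 62, 74 and 73 in nonTV:Malat1. Replicate 5, which had the shallowest library and 240 nuclei left, was the highest of its group. The median astrocyte held 34, 28 and 34 against 96, 108 and 112, and the median neuron 49, 38 and 48 against 70, 70 and 78. Nuclei without any Malat1 UMI after thinning were at most 0.668% of oligodendrocytes and 2.56% of endothelial nuclei in a library.

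Low nuclei were defined as those whose thinned count did not exceed the 5th percentile of nonTV:Malat1 nuclei in the same class. Low nuclei were 89.6%, 93.8% and 88.0% of astrocytes in OTV:Malat1 and 10.1%, 4.16% and 3.26% in nonTV:Malat1. In oligodendrocytes they were 85.8%, 88.5% and 58.3% against 4.86%, 4.46% and 7.02%, and in vascular endothelium 68.8% ± 12.2 against 5.96% ± 4.26 (SD, n = 3 each). The oligodendrocyte value pools clusters that kept different shares of Malat1. After thinning, OTV:Malat1 replicate 5 held 120 nuclei of cluster 3, of any class name, beside 240 oligodendrocytes, and replicate 1 held 857 beside 981. The part of this mix in the 58.3% was not tested. Within cluster 3 low nuclei were 94.98%, 97.1% and 85.8% against 4.73%, 4.15% and 7.23%. Microglia had 54.0% ± 9.59, Pericytes 47.2% ± 15.2 and neurons 28.2% ± 7.58 low nuclei in OTV:Malat1 (SD, n = 3 each). In nonTV:Malat1 the same classes had 10.5% ± 6.66, 9.11% ± 5.94 and 4.93% ± 1.05. Leptomeningeal cells had 14.8% ± 6.26 and Glia 7.74% ± 6.26 in OTV:Malat1, where the nonTV:Malat1 means were 5.93% and 5.51%. Averaged over these 8 classes the share was 46.7%, 55.8% and 43.3% in OTV:Malat1 and 8.26%, 6.60% and 5.11% in nonTV:Malat1. The difference was 41.9 percentage points, and 40.8 points without thinning. The cutoff was set from the nonTV:Malat1 nuclei themselves, which holds their share low. By class their mean share ran from 4.93% in neurons to 10.5% in microglia. An exact two-sided permutation test gave p = 0.1 without the pairing, and flipping signs within batch gave p = 0.25. As the cutoff was not set anew for each permutation, these tests cannot decide whether the groups differ.

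Taking 1 nucleus from each group of the same batch, the OTV:Malat1 nucleus was the lower in 97.2% of astrocyte pairs (95.8% to 98.5% over the batches) and 92.2% of oligodendrocyte pairs (85.1% to 97.0%). The share was 89.9% in vascular endothelium, 85.5% in microglia, 81.9% in Pericytes and 75.3% in neurons. It was 65.8% in Leptomeningeal cells (49.4% to 79.3%, with replicate 1 the lowest) and 63.0% in Glia (56.1% to 68.6%). In cluster 3 it was 97.5% and in cluster 4 97.8%. Free RNA in the suspension adds Malat1 UMIs to every nucleus of a library, and its part in these values was not tested.

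**Figure D4:**
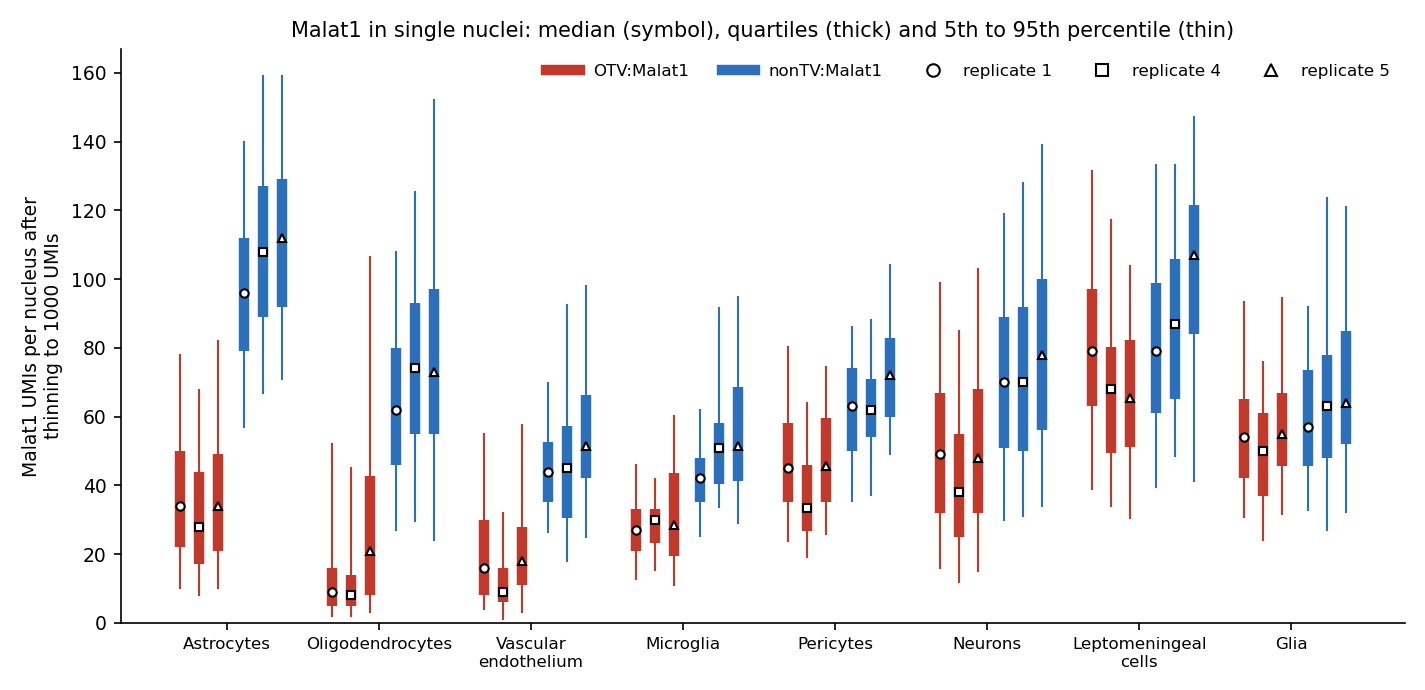
Malat1 UMIs per nucleus after thinning to 1000 UMIs (vertical axis) for each OTV:Malat1 (red) and nonTV:Malat1 (blue) library in 8 classes: symbols mark medians, thick bars the quartiles and thin lines the 5th to 95th percentile. Red and blue quartile bars are separate in astrocytes (medians 28 to 34 against 96 to 112) and overlap in neurons and Glia.

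Tfrc, the gene of the transferrin receptor, was read in each class. Tfrc lies on chromosome 16 from 32608896 to 32632794, and it is not given whether knock-in transcripts were counted under this symbol. In nonTV:Malat1 it was highest in vascular endothelium, at 317 ± 51.7 CPM, and in Pericytes, at 242 ± 47.8 CPM (SD, n = 3 each). These neighbours in the order did not differ beyond their spread. Vascular smooth muscle followed at 48.3 ± 26.2 CPM and neurons at 32.8 ± 2.85 CPM. Microglia at 23.2 CPM, oligodendrocytes at 21.0 CPM, astrocytes at 20.6 CPM, Leptomeningeal cells at 15.9 CPM and Glia at 12.4 CPM overlapped one another over their libraries. Of Malat1, vascular endothelium kept 38.8%, Pericytes 66.7%, vascular smooth muscle 90.9%, neurons 62.6% and microglia 61.4%. Oligodendrocytes kept 24.9%, astrocytes 34.9%, Leptomeningeal cells 80.2% and Glia 78.8%. The relation between Tfrc and Malat1 over classes was not tested.

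Tfrc itself was not called in any of the 6 classes in which it was tested. Its log2 change was -0.21 (SE 0.246) in vascular endothelium, where the libraries held 281, 347 and 231 CPM in OTV:Malat1 and 274, 303 and 374 CPM in nonTV:Malat1. The change was 0.07 (SE 0.0858) in neurons, 0.07 (SE 0.229) in Pericytes, -0.04 (SE 0.221) in astrocytes, -0.09 (SE 0.244) in oligodendrocytes and 0.36 (SE 0.504) in Glia, the last from 40 UMIs in the 6 libraries. Microglia, with 11 Tfrc UMIs in the 6 libraries, Leptomeningeal cells, with 22, and vascular smooth muscle, with 8, were too low to test.

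Beyond the target, 14 gene lists were followed in the 20 fits, and no member other than Malat1 was called in either direction in any of 3880 gene tests by edgeR. Over the classes, 68 of 1484 such tests (4.58%) had an unadjusted p under 0.05, beside 3.78% of all gene tests. By list this ran from 0 of 80 for stress and cell death to 14 of 140 for the barrier list and 6 of 60 for astrocyte reactivity. The lists are therefore given as values. Neat1, the long non-coding RNA gene next to Malat1 and the scaffold of paraspeckles, was at 134 ± 7.61 CPM in OTV:Malat1 and 133 ± 8.79 CPM in nonTV:Malat1 in all nuclei (SD, n = 3 each). In oligodendrocytes Neat1 was at 1365 ± 96.6 against 1291 ± 76.3 CPM. The 17 tested neighbours of Malat1 on its chromosome had a median log2 change of -0.01, against 0.01 for all genes. Of other nuclear long non-coding RNAs, Meg3 was at 7735 ± 258 against 7523 ± 398 CPM in neurons and Snhg11 at 4811 ± 274 against 4722 ± 35.6 CPM. In oligodendrocytes Meg3 had a log2 change of 0.43 (SE 0.109, edgeR adjusted p 0.418).

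Splicing factors that gather at nuclear speckles did not pass the test: Son, a speckle scaffold, was at 380 ± 41.0 against 366 ± 34.6 CPM in all nuclei, and Srrm2, a second one, at 337 ± 24.1 against 297 ± 36.2 CPM (log2 change 0.16, SE 0.0727). Among paraspeckle and oligonucleotide-binding proteins, Sfpq was at 167 ± 18.5 against 159 ± 12.7 CPM. The 27 genes of endosomal and lysosomal sorting tested in all nuclei had a median log2 change of -0.01 against 0.01 for all genes, and 1 had an unadjusted edgeR p under 0.05. Cltc, the clathrin heavy chain, was at 113 ± 6.50 against 109 ± 6.35 CPM and Picalm, a clathrin adaptor, at 107 ± 9.15 against 100.1 ± 6.80 CPM. Of the iron genes, Fth1, the ferritin heavy chain, was at 375 ± 102 against 428 ± 207 CPM.

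Lists tied to the health of single classes were read in their own class. In oligodendrocytes the 19 myelin genes tested had a median log2 change of -0.03 against 0.01 for all genes, with Mbp at 4194 ± 230 against 4077 ± 362 CPM. In microglia the 11 homeostatic genes tested had a median of -0.16 against 0.01, with P2ry12, a purinergic receptor, at 824 ± 210 against 979 ± 121 CPM. The 6 activation genes tested there had a median of -0.14, with Apoe, which carries lipids, at 981 ± 40.2 against 1225 ± 141 CPM (log2 change -0.36, SE 0.185). In astrocytes the 10 reactivity genes tested had a median of -0.08 against 0.01, and 1 had an unadjusted edgeR p under 0.05, beside 3.55% of all genes there. Vim, an intermediate filament, was at 37.7 ± 7.49 against 47.9 ± 12.1 CPM. In vascular endothelium the 22 barrier genes tested had a median of -0.04 against 0.01, and 4 had an unadjusted edgeR p under 0.05, beside 3.33% of all genes there, with the receptor Flt1 at 5945 ± 565 against 5444 ± 351 CPM and Bsg (basigin) at 6781 ± 503 against 7947 ± 582 CPM.

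Lists of innate sensing, stress and neuronal activity were read in neurons. The 26 nucleic acid sensing and interferon genes tested had a median log2 change of -0.08, the 22 stress and cell death genes -0.01 and the 20 immediate-early genes -0.07, against -0.00 for all genes. In all nuclei the 28 sensing and interferon genes tested had a median of -0.15 against 0.01, and 5 had an unadjusted edgeR p under 0.05, beside 3.97% of all genes. In all nuclei Stat2, an interferon signal transducer, was at 22.9 ± 1.28 against 22.1 ± 0.0213 CPM, Irf3, a transcription factor of the interferon response, at 21.6 ± 5.30 against 22.8 ± 3.49 CPM and Rnf213 at 16.2 ± 2.42 against 17.1 ± 0.899 CPM. In neurons Hspa5, an endoplasmic reticulum chaperone, was at 35.2 ± 7.52 against 37.2 ± 5.38 CPM, and Homer1, a synaptic scaffold induced by activity, at 357 ± 112 against 333 ± 108 CPM.

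Besides Malat1, edgeR made 13 calls of genes over the 9 classes, 3 higher and 10 lower, and 6 over the clusters. Leaving out either Malat1 ASO library gave 39 over the classes. Without batch as a block it made 0 in either, and DESeq2 made 5 over the classes, of which 1 was shared with the 13. Without called doublets 10 calls were made over the classes, 2 of them shared: mt-Co1 in oligodendrocytes and Hbb-bs in Pericytes. Over the clusters, without called doublets 22 calls were made, of which 1 was shared with the 6, and DESeq2 shared 0. The levels of these genes are given by library.

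Ttr, transthyretin, made by the choroid plexus, was called lower in microglia, where it was at 1196, 1126 and 932 CPM in OTV:Malat1, against 2229, 1787 and 2175 CPM in nonTV:Malat1. The groups did not overlap, and the log2 change was -0.94 (SE 0.175, edgeR adjusted p 0.00347). That call was lost by DESeq2 (0.205), without called doublets (0.0703), in nuclei of at least 1000 UMIs (0.796) and in 4 of the 11 fits that left out 1 library. Ttr was also called lower in clusters 5, 7 and 9, by -0.62, -0.82 and -0.90. Without called doublets these 3 calls were lost (0.193, 1.00 and 0.202), as they were by DESeq2. With 1 library left out the calls in clusters 5 and 7 were each lost in 7 of 11 fits and that in cluster 9 in 1, without OTV:Malat1 replicate 1 (0.121). Its log2 change was below 0 in all 9 classes tested, from -0.94 to -0.58. In ATV:BACE1 Ttr in microglia was at 2096, 1007 and 1507 CPM, which spans both groups. The sum of all 7 choroid plexus markers, Ttr among them, was 1213 to 1449 CPM in OTV:Malat1 microglia and 2021 to 2478 CPM in nonTV:Malat1 microglia. In neurons it was 582 to 652 against 728 to 842 CPM, with no marker at 0. Ttr made up most of the sum in microglia, so the sum largely repeats the change of Ttr and does not show that the other markers fell. The part of free choroid plexus RNA in these changes was not tested.

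The mitochondrial transcript mt-Co1, which marks RNA from outside the nucleus, was called lower in oligodendrocytes. It was at 144, 93.0 and 88.9 CPM in OTV:Malat1 and 244, 138 and 135 CPM in nonTV:Malat1, which overlap, and the log2 change with batch as a block was -0.74 (SE 0.121, edgeR adjusted p 0.00383). The call was lost with the 6 libraries only (0.0501), in nuclei of at least 1000 UMIs (0.140) and on leaving out replicate 1 of nonTV:Malat1 (0.362), replicate 4 of nonTV:Malat1 (0.0622) or replicate 1 of OTV:Malat1 (0.152). In microglia mt-Co1 was at 120, 49.5 and 12.8 against 299, 162 and 174 CPM, the first 3 from 28, 4 and 1 UMIs. The log2 change there was -1.64 (SE 0.363, edgeR adjusted p 0.0304). The call was lost by DESeq2, without called doublets, in nuclei of at least 1000 UMIs and in 7 of 11 fits with 1 library left out. In cluster 3 the log2 change was -0.69 (edgeR adjusted p 0.0392). That call was lost by DESeq2 (0.173), with the 6 libraries only, with total counts, in nuclei of at least 1000 UMIs and in 6 of 11 such fits. The log2 change of mt-Co1 was below 0 in all 9 classes. In ATV:BACE1 oligodendrocytes mt-Co1 was at 154, 77.6 and 98.0 CPM, and the part of cytoplasmic carry-over was not tested.

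**Figure D5:**
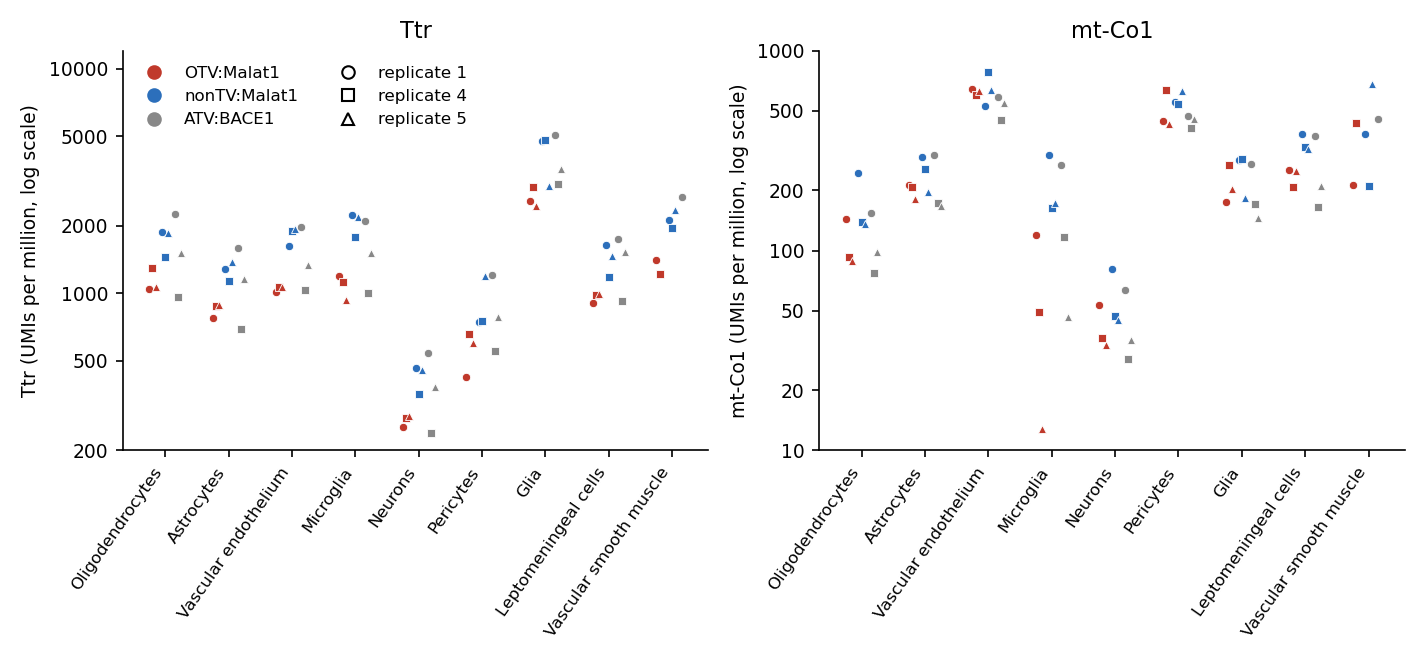
Ttr (left) and mt-Co1 (right) in CPM on log axes, by class and library, for OTV:Malat1 (red), nonTV:Malat1 (blue) and ATV:BACE1 (grey). In microglia the red Ttr points (932 to 1196 CPM) lie below the blue ones (1787 to 2229 CPM), and the grey ones (1007 to 2096 CPM) span both.

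In microglia Ntm, a neuronal cell adhesion molecule, and Slc35f1, a transporter-like membrane protein, were called higher. Ntm was at 146, 384 and 459 CPM in OTV:Malat1 and 71.2, 152 and 112 CPM in nonTV:Malat1 (log2 change 1.44, SE 0.308, edgeR adjusted p 0.0248), and the groups overlapped. Slc35f1 was at 55.7, 173 and 128 CPM from 13, 14 and 10 UMIs, against 2, 3 and 1 UMIs (log2 change 2.46, SE 0.563, edgeR adjusted p 0.0417). With 1 library left out the call of Slc35f1 was lost in 8 of 11 fits and that of Ntm in 6. Both were lost by DESeq2 (0.717 and 0.460), without called doublets (0.609 and 0.676) and in nuclei of at least 1000 UMIs (0.277 and 0.374). In ATV:BACE1 Ntm was at 178, 557 and 513 CPM and Slc35f1 at 55.7, 234 and 140 CPM, and the highest library of each lay above the highest of OTV:Malat1. Neuron markers in microglia summed to 1184 to 1876 CPM in OTV:Malat1 and 854 to 1523 CPM in nonTV:Malat1, and oligodendrocyte markers to 1968 to 4238 against 1901 to 3654 CPM. Their part in these calls was not tested. In cluster 7 Nwd2 (log2 change 2.50, SE 0.354, edgeR adjusted p 3.28e-05) had 89, 36 and 27 UMIs in OTV:Malat1 and 3, 9 and 10 in nonTV:Malat1. That call was lost by DESeq2 (0.855), without called doublets (1.00) and without nonTV:Malat1 replicate 1 (0.0515). In ATV:BACE1 Nwd2 was at 142, 202 and 25.9 CPM, which spans both groups. OTV:Malat1 held 172, 156 and 80.1 CPM and nonTV:Malat1 9.78, 31.6 and 26.0 CPM. D130079A08Rik had 21, 13 and 2 UMIs against 0 in each nonTV:Malat1 library, at least 10.8-fold higher against a floor of 3 counts over the group. The ATV:BACE1 libraries held 3, 6 and 0 UMIs of D130079A08Rik. The call of D130079A08Rik was lost by DESeq2 (0.424), without the block (1.00) and on leaving out replicate 1 (0.315) or 4 (1.00) of nonTV:Malat1 or replicate 5 of OTV:Malat1 (0.0533).

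The class named Pericytes gave 8 calls besides Malat1. Of these 7 were lower, namely Kcnip4, Cntnap2, Lingo2, Cntn5, Nkain2, Hs6st3 and Robo1. Kcnip4, a subunit of potassium channels, was at 187, 332 and 159 CPM in OTV:Malat1 and 760, 2083 and 323 CPM in nonTV:Malat1 (log2 change -2.12, SE 0.310, edgeR adjusted p 0.000394). Cntnap2, a neurexin-like protein, was at 96.2, 156 and 90.7 against 210, 999.96 and 117 CPM (log2 change -1.81). In both the nonTV:Malat1 replicate 4 library, with 40 nuclei, was far above the others. In ATV:BACE1 Kcnip4 was at 317, 299 and 207 CPM and Cntnap2 at 90.0, 111 and 67.2 CPM, below every nonTV:Malat1 library. For Cntn5 and Hs6st3 the ATV:BACE1 libraries also lay below those of nonTV:Malat1. For Lingo2, Nkain2 and Robo1 they overlapped both groups. Without called doublets, which were 16.8%, 7.50% and 0.0% of nonTV:Malat1 Pericytes and 5.88%, 3.03% and 1.56% of OTV:Malat1 ones, the log2 change was -0.31 for Kcnip4, -0.38 for Cntnap2, 0.37 for Lingo2, -0.48 for Nkain2, -0.98 for Hs6st3 and -1.01 for Robo1. Each then had an edgeR adjusted p of 0.998. Cntn5 gave no value without called doublets. The remaining log2 changes with all nuclei were -1.67 for Lingo2, -2.49 for Cntn5, -1.26 for Nkain2, -2.40 for Hs6st3 and -1.73 for Robo1. With 1 library left out, the call held in 6 of 11 fits for Lingo2 and in 7 for Hs6st3 and Robo1. It held in 8 for Cntn5 and Nkain2 and in 9 for Kcnip4 and Cntnap2. In these fits Cntnap2 ran from -2.10 to -0.82 and Cntn5 from -2.98 to -1.42. Neuron markers in this class summed to 894 to 986 CPM in OTV:Malat1 and to 964, 1625 and 736 CPM in nonTV:Malat1. Hbb-bs, a haemoglobin chain of red blood cells, was called higher from 170 UMIs in OTV:Malat1 replicate 5 alone, with 0 and 1 in replicates 1 and 4. That call was lost by DESeq2, without the block and on leaving out nonTV:Malat1 replicate 5 or OTV:Malat1 replicate 4. Only 9 of the 11 fits that left out 1 library gave a value for Hbb-bs. Outside OTV:Malat1 replicate 5, only ATV:BACE1 replicate 1 held more than 1 UMI of Hbb-bs, at 50 UMIs. The log2 change of Hbb-bs ran from 5.38 to 12.9 over the settings that gave a value.

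The number of nuclei per class did not give a call by edgeR in any of the 10 classes, and none had an unadjusted p under 0.05, the smallest being 0.0898. Astrocytes made up 12.99%, 14.0% and 6.29% of OTV:Malat1 nuclei and 17.9%, 13.7% and 9.95% of nonTV:Malat1 nuclei (log2 change -0.36, SE 0.182, edgeR adjusted p 0.451). Oligodendrocytes made up 15.6%, 14.1% and 9.38% against 12.6%, 13.2% and 11.6% (log2 change 0.03, SE 0.152). Both groups overlapped. Without OTV:Malat1 replicate 4, 4 classes were called.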

How the data were processed

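Nuclei were captured in droplets and sequenced in 11 libraries. The submitters' processing notes name Cell Ranger 5.0.0, Seurat 4 and mm10, with no role stated; what else was done to make the matrix is not given in the sources used here. Per the file headers the deposited matrix holds whole-number UMI counts for 25938 gene symbols and 110304 nuclei, without normalization. The authors also deposited, per nucleus, the mitochondrial percent of UMIs, a class prediction score as a fraction, class, cluster, doublet call and batch. Nuclei had been filtered before deposit in a way not stated, and called doublets were kept here. The sources used here do not state that each library is a separate animal, so p-values measure the spread between libraries.

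Counts were summed per library for all nuclei and for each class and cluster with at least 20 nuclei in a library. They were fitted with edgeR 4.0.16 (glmQLFit, glmQLFTest, TMM, filterByExpr) in R 4.3.3 over all 11 libraries, with batch as a block and p-values adjusted over all genes of a fit. Exact permutation tests compared library shares without the pairing by batch, and for low nuclei also with signs flipped within batch. Class differences used an interaction in edgeR, and limma 3.58.1 on library differences. Python 3.11.15 was used for the nuclei. CPM and percent values are unfitted shares of UMIs, and log2 changes come from the fits. For edgeR the SE was derived from the fit, as the absolute log2 change divided by the square root of the F statistic of its test. In the libraries of the 2 groups with at least 20 nuclei of a class, neurons held at least 28766568 UMIs, vascular endothelium 72690 and vascular smooth muscle 18950, so counting error limits genes of few UMIs in small classes.

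The pairing comes from the deposited batch numbers, which group the same libraries as the replicate numbers of the titles (batch 1 for replicate 1, 3 for 4 and 4 for 5). Deviations of log2 CPM from the group means over 15556 genes correlated between libraries of the same number at r = 0.765, 0.513 and 0.595. Libraries of a group differed beyond sampling noise. On simulated counts with known changes of 1 log2 unit, 84.7% were recovered in all nuclei (21152 genes) and 68.0% in oligodendrocytes (12267 genes). Changes of 2 log2 units were recovered in 97.0% and 96.9%, and 8 and 10 unchanged genes were called in these fits. The simulations changed many genes at once, in all nuclei 98 by 1 and 99 by 2 log2 units. Each gene was drawn at the spread of the trend over genes of its level. They therefore cannot give how often a single changed gene would be called in the deposited counts.

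The members and gene lists were chosen with earlier results of these data known. Genes named besides Malat1 and Tfrc are all those called in a class or cluster, and for each list up to 3 members with the highest mean level in all nuclei; some of these are not reported here. Those called in the interaction test against neurons are named outside that rule, after their values were seen. Gad2, Slc17a7, Rbfox3 and Mbp in clusters were named after their values were seen. Alternatives were no block, 6 libraries only, DESeq2 1.42.0, total counts, Malat1 left out of library sizes, no low-count filter, no called doublets, nuclei of at least 1000 UMIs, a minimum of 50 nuclei, and each library left out.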

Additional observations from a re-analysis of the deposited data

Results flagged for a closer look

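Differences between the change in a class and the change in neurons passed the interaction test in edgeR, over all genes and with batch as a block, for 15 gene and class pairs. Malat1 was among them in oligodendrocytes (-1.36) and astrocytes (-0.91), as given above. In astrocytes the log2 change exceeded that of neurons by 0.68 for Col25a1, 1.39 for Tll1, 0.70 for Slc15a2 and 0.82 for Il1rapl2. It lay below that of neurons by -0.82 for Grm8, -1.51 for Cemip and -0.85 for 4930415C11Rik. Each of these 7 calls was lost without the replicate block and in 2 to 5 of the 11 fits that left out 1 library. In those fits the range was 0.30 to 1.34 for Slc15a2, 0.31 to 1.08 for Il1rapl2 and 0.51 to 0.95 for Col25a1. It was -1.09 to -0.54 for 4930415C11Rik. The calls of Grm8 and Il1rapl2 were also lost without called doublets. Within astrocytes none of the 7 was called (edgeR adjusted p at least 0.114). Slc15a2 did not rise in astrocytes: its log2 change was -0.33 there and -0.85 in neurons, where it was at 3.41 to 14.7 CPM. In oligodendrocytes Sgk1, a kinase induced by glucocorticoids, differed by 0.51 (SE 0.107, edgeR adjusted p 0.0184). Its value ran from 0.25 to 1.01 with 1 library left out. The call was lost without replicate 1 or 5 of either group, without the replicate block (0.54) and in nuclei of at least 1000 UMIs (0.42), each with an adjusted p of 0.988 or more. Sgk1 was at 159.5, 146 and 199 CPM in OTV:Malat1 and 97.8, 182 and 62.9 CPM in nonTV:Malat1 in the order of replicates 1, 4 and 5, so replicate 4 went the other way. In Glia Npsr1 differed by -3.72 (SE 0.732, edgeR adjusted p 0.00800), from 0, 1 and 1 UMIs in OTV:Malat1 and 1, 17 and 23 in nonTV:Malat1. That call was lost without called doublets (-3.33) and in 5 of 11 fits with 1 library left out, which ran from -4.84 to -2.71.

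In microglia Gpc5 differed from neurons by 1.68, Col25a1 by -3.07 and Il1rapl2 by -2.49. The call of Gpc5 was lost without the replicate block (1.63), without called doublets (1.22), in nuclei of at least 1000 UMIs (1.65) and in 5 of 11 fits with 1 library left out. For Col25a1 and Il1rapl2, 101 and 58 UMIs came from nonTV:Malat1 replicate 4, and without it the values were -0.56 and -0.23. In the class named Pericytes Ntng1 differed by -2.92 (SE 0.552, edgeR adjusted p 0.00236), with 37 UMIs in nonTV:Malat1 replicate 4.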

How the results depend on the processing

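Malat1 in all nuclei kept its direction in every setting run, and was called in some of them. The log2 change was -0.78 with the 6 libraries only (adjusted p 0.0337), -0.78 by DESeq2 (8.94e-16), -0.75 with total counts (4.53e-05) and -0.77 with no low-count filter (0.000960), and each of these called 1 gene. With 1 library left out it ran from -0.85 to -0.67, and 0 to 1 genes were called. Without the replicate block 2 classes and 4 clusters were called for Malat1, against 6 and 7 with batch as a block, and 1 class differed from neurons, against 2. By limma on library differences 5 classes differed from neurons with the block and 5 without it. With 1 library left out, 4 to 6 classes and 4 to 8 clusters were called, and 2 classes differed from neurons each time.

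Calls of other genes moved most. Over the classes the count was 0 without the replicate block, 36 with 6 libraries only, 5 by DESeq2, 54 with no filter, 7 with at least 50 nuclei and 5 to 39 with 1 library left out. Over the clusters it was 0 without the replicate block, 11 with 6 libraries only, 2 by DESeq2, 10 with total counts, 95 with no filter, 22 without called doublets and 2 to 16 with 1 library left out. The direction turned for Lingo2 in Pericytes without called doublets (0.37). It turned for Ntng1 in Pericytes against neurons without called doublets (0.0864), with at least 50 nuclei (0.21) and without nonTV:Malat1 replicate 4 (0.21). With 1 library left out this value ran from -3.995 to 0.21. The cause was not tested. The difference in low nuclei ran from 38.3 to 44.6 points with 1 library left out, and 0 to 4 classes were called by number of nuclei. Vascular smooth muscle and microglia, with few nuclei per library, limit what depth can show. The limma test and the split of oligodendrocytes by cluster were chosen after seeing the data.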
